A study of Homo sapiens with 6 samples.

Results

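The RNA exosome is the main machine of human cells that digests RNA from its 3′ end. It was examined here through the mRNAs of its 10 core subunit genes, EXOSC1 to EXOSC10, which were taken by symbol from the 20169 genes of the count table. All 10 had a row, and all 10 were among the 13103 genes kept by the low-count filter, with at least 649 reads in every library. The study compared monoclonal HEK293T lines, human embryonic kidney cells that carry the SV40 large T antigen. Each line held a landing pad, a genomic site built to receive a reporter gene, with either the PGK promoter or the CAG promoter. The PGK promoter comes from a glycolytic gene and CAG is a strong composite promoter. Each group had 3 polyA-selected libraries, and no other treatment or genotype is named in the labels for either line.

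The exosome is a barrel. A ring of RNase PH-like subunits (EXOSC4 to EXOSC9) carries a cap of RNA-binding subunits (EXOSC1, EXOSC2 and EXOSC3), and RNA threads through the ring to a nuclease at its base. In humans the ring itself has lost catalytic activity, which rests with DIS3 or DIS3L at the base and with EXOSC10, a nuclease of the nucleus and nucleolus. The complex trims ribosomal and small RNA precursors, removes short-lived nuclear transcripts, and degrades mRNA in the cytoplasm. Because the ring and cap subunits occur in equal number in the assembled complex, the balance between the subunit mRNAs was measured along with their levels. EXOSC10 was included in the balance, although that premise does not cover it.

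Total counts were 21896246 to 22889708 in the PGK libraries and 22450538 to 23442542 in the CAG libraries. Since the labels distinguish a single line for each promoter, effects of promoter and of clone cannot be told apart. Nothing in the labels says whether the 3 libraries of a line are separate cultures, and the p-values cover only the spread among them, which may be technical. The kidney marker WT1 was at 10.5 CPM (reads scaled to a common library total) in PGK and 6.72 in CAG, PAX2 at 1.55 and 1.27, and PAX8 at 0 in all but 1 library. Summed over its 3 matched genes of 4, the kidney list ran from 11.8 to 12.3 CPM in PGK and from 7.38 to 8.91 in CAG, with WT1 called lower. CD3E, HBB and ALB were at 0 counts in all 6 libraries, PTPRC reached 0.0449 CPM and APOA1 0.186 CPM. All 3 fibroblast markers (COL1A1, COL3A1 and LUM) were called higher in CAG, with summed levels of 20.2 to 21.9 CPM in PGK and 29.2 to 30.5 in CAG. The part of these marker differences in the exosome values was not tested.

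The exosome genes did not move together between the lines. In bulk RNA a difference in the cells that express a gene and one in the RNA per cell cannot be told apart. By edgeR's quasi-likelihood test, with p-values adjusted by Benjamini-Hochberg over all tested genes, 3 of the 10 subunits were higher in the CAG line (EXOSC7, EXOSC8 and EXOSC9) and 4 were lower (EXOSC1, EXOSC3, EXOSC4 and EXOSC10). The other 3 (EXOSC2, EXOSC5 and EXOSC6) did not pass an adjusted p of 0.05. Over all tested genes 62.0% were called, 31.6% higher and 30.4% lower, so a count of 7 in 10 is near the background. The log2 fold change, CAG over PGK, ran from -0.93 to 0.63, with a median of -0.03 against -0.002 over all tested genes. The median size of the change without its sign was 0.51 in the exosome and 0.26 over all tested genes. At least 1.4-fold differences were called for 6 of the 10 subunits and for 26.2% of tested genes. The 1.4-fold cut was not planned. EXOSC9 (1.42-fold), EXOSC10 (1.43), EXOSC7 (1.45) and EXOSC1 (1.46) lay just above it, so the count of 6 depends on the cut. For the same 6 subunits the 3 libraries of one line lay clear of the 3 of the other, which held for 65.5% of tested genes.

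**Figure D1:**
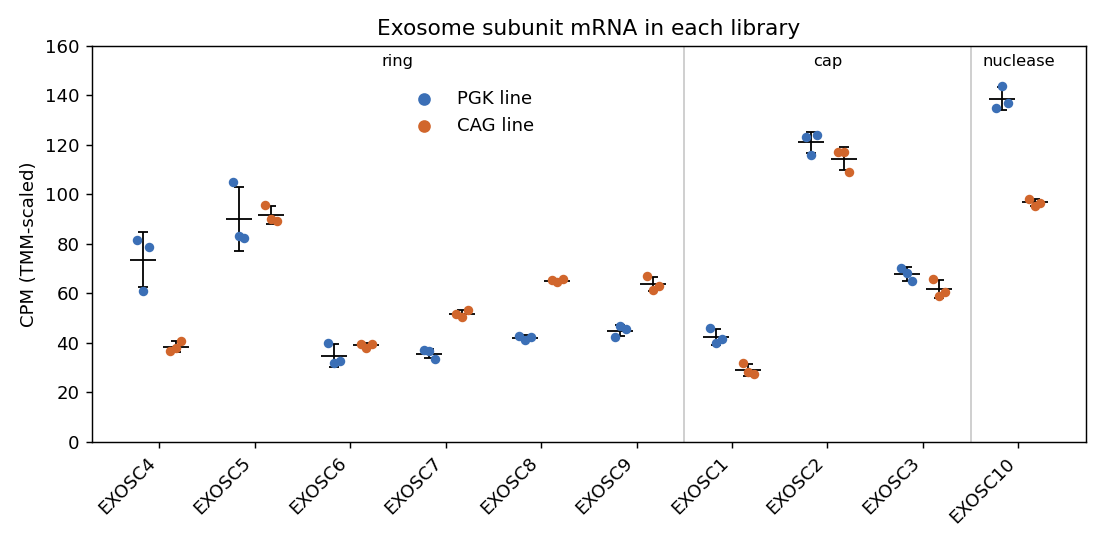
Levels of the 10 exosome subunit mRNAs in CPM on the TMM-scaled library size, a scaling that centres most genes between libraries. Points are libraries (3 per line), dashes are means and bars are SD. The libraries of the lines separate for EXOSC4, EXOSC7, EXOSC8, EXOSC9, EXOSC1 and EXOSC10 and overlap for the others.

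Among the ring subunits, EXOSC8 had the largest rise. EXOSC8 (ENSG00000120699, chromosome 13) is a ring subunit in which inherited mutations cause a neurological disease with hypomyelination. It was at 42.7, 41.0 and 42.5 CPM in PGK and at 65.3, 64.4 and 65.7 CPM in CAG. Each line's libraries were within a few percent of each other and the lines lay far apart. The means were 42.1 ± 0.937 and 65.2 ± 0.657 CPM (SD, n = 3), a ratio of 1.55. The log2 fold change was 0.63 (SE 0.05), with an adjusted p of 5.7e-09 in edgeR's quasi-likelihood test. EXOSC8 shares exon sequence with SUPT20H on the other strand and overlaps ALG5 there, and since the strand setting of the counts is not known here, its level is uncertain.

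EXOSC7 and EXOSC9 rose by similar amounts. EXOSC7 (ENSG00000075914, chromosome 3) was at 36.9, 36.5 and 33.5 CPM in PGK and at 51.7, 50.3 and 53.3 in CAG. All CAG libraries were above all PGK libraries. The means of 35.6 ± 1.85 and 51.7 ± 1.5 CPM (SD, n = 3) gave a log2 fold change of 0.54 (SE 0.06), with an edgeR adjusted p of 2.4e-07. EXOSC9 (ENSG00000123737, chromosome 4), known as an autoantigen in polymyositis and scleroderma, was at 42.3, 46.8 and 45.6 CPM in PGK and 66.8, 61.5 and 62.8 in CAG. Here too the lines did not overlap. The means of 44.9 ± 2.33 and 63.7 ± 2.77 CPM (SD, n = 3) gave a log2 fold change of 0.51 (SE 0.06) and an edgeR adjusted p of 3.8e-07. EXOSC7 shares exon sequence with CLEC3B on the same strand, which was at 0.24 CPM in PGK and 0.602 in CAG. EXOSC9 shares exon sequence with the cyclin gene CCNA2 on the other strand, so both levels are uncertain.

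EXOSC4 had the largest fall. EXOSC4 (ENSG00000178896, chromosome 8) is a ring subunit and the dimer partner of EXOSC9. It was at 81.4, 60.8 and 78.6 CPM in PGK and at 36.7, 37.8 and 40.9 in CAG. The PGK libraries were uneven, with replicate 2 the lowest, yet all 3 lay above all CAG libraries. The means were 73.6 ± 11.2 and 38.5 ± 2.2 CPM (SD, n = 3), 1.91-fold lower in CAG. The log2 fold change of -0.93 (SE 0.10) had an edgeR adjusted p of 2e-05 and ranged from -1.06 to -0.86 when single libraries were left out. The longest coding transcript of EXOSC4 has a GC content of 57.09%. In PGK replicate 2 the tested genes in the top quartile of GC content had a median deviation of -0.072 (log2) from the mean of the PGK libraries, against 0.042 and 0.029 in replicates 1 and 3. With a GC trend removed from each library the log2 fold change was -0.92. Whether GC content bears on the low EXOSC4 level in PGK replicate 2 was not tested. An antisense transcript overlaps EXOSC4, as antisense transcripts do EXOSC10, so both levels are uncertain in the same way.

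The remaining ring subunits, EXOSC5 and EXOSC6, did not pass. EXOSC5 (ENSG00000077348, chromosome 19) was at 105, 83.1 and 82.3 CPM in PGK and 95.7, 90.1 and 89.2 in CAG. PGK replicate 1 was the highest of the 6 libraries and the other PGK libraries were the lowest. The log2 fold change was 0.03, with a 95% interval of -0.15 to 0.20 and an edgeR adjusted p of 0.793. EXOSC6 (ENSG00000223496, chromosome 16) was at 40.0, 31.8 and 32.7 CPM in PGK and 39.6, 38.0 and 39.4 in CAG. Again PGK replicate 1 stood above the other PGK libraries, and it also stood above the CAG libraries. The log2 fold change was 0.16 (SE 0.08), with a 95% interval of 0.01 to 0.32 and an edgeR adjusted p of 0.0673. Without PGK replicate 1 both genes were called higher in CAG, EXOSC5 at 0.15 with an edgeR adjusted p of 0.0239 and EXOSC6 at 0.27 with 0.00085, which made 5 subunits higher. EXOSC5 shares exon sequence with BCKDHA on the other strand, a gene that did not pass the low-count filter, and its level is uncertain too.

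In the cap, 1 subunit fell clearly and the others differed little. EXOSC1 (ENSG00000171311, chromosome 10), a cap subunit with an RNA-binding S1 domain, was at 46.1, 39.8 and 41.6 CPM in PGK and 31.7, 28.3 and 27.2 in CAG. The lines did not overlap. Its means of 42.5 ± 3.26 and 29.1 ± 2.31 CPM (SD, n = 3) gave a log2 fold change of -0.55 (SE 0.07), with an edgeR adjusted p of 2.3e-06. EXOSC2 (ENSG00000130713, chromosome 9) had the highest CPM of the cap genes, at 123, 116 and 124 in PGK and 117, 117 and 109 in CAG. The lines overlapped, with a log2 fold change of -0.08, a 95% interval of -0.19 to 0.03 and an edgeR adjusted p of 0.175.

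EXOSC3 (ENSG00000107371, chromosome 9), the cap gene mutated in a form of pontocerebellar hypoplasia, was at 70.3, 68.2 and 64.9 CPM in PGK and 65.9, 58.8 and 60.7 in CAG. The libraries overlapped, with CAG replicate 1 above PGK replicate 3. Its log2 fold change of -0.13 (SE 0.06) passed narrowly, with an edgeR adjusted p of 0.0488 that ran from 0.00875 to 0.21 over the alternatives. The call was lost without PGK replicate 1 (0.115) or 2 (0.0694), and without CAG replicate 2 (0.21) or 3 (0.15). EXOSC3 shares exon sequence with DCAF10 on the other strand and with the protein-coding AL138752.2 on its own strand, and 2 pseudogenes are named for it (EXOSC3P1 and EXOSC3P2), so its reads are uncertain.

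The nuclear nuclease EXOSC10 was lower in the CAG line. EXOSC10 (ENSG00000171824, chromosome 1) is the subunit that trims the ends of ribosomal and small nucleolar RNA. It was at 135, 144 and 137 CPM in PGK and 98.3, 95.4 and 96.5 in CAG, with no overlap. The means of 139 ± 4.57 and 96.7 ± 1.49 CPM (SD, n = 3) differed 1.43-fold. The log2 fold change was -0.52 (SE 0.05), with an edgeR adjusted p of 2.9e-08.

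Summed over the 10 genes, exosome mRNA differed less between lines than any of the 6 subunits with non-overlapping libraries. The sum was 722.9, 667.8 and 682.2 CPM in PGK and 668.4, 642.2 and 645.0 in CAG. CAG replicate 1 lay above PGK replicate 2, so the lines overlapped. The means were 691.0 ± 28.6 and 651.8 ± 14.4 CPM (SD, n = 3), a CAG to PGK ratio of 0.943. The difference of means exceeded the SD of either line and was not tested.

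The balance between subunits changed within that sum. To compare levels between genes, CPM was divided by the length of each gene's longest coding transcript in kb. On this length-scaled level EXOSC5 led in both lines, with 80.5 ± 11.4 CPM per kb in PGK and 82.0 ± 3.15 in CAG (SD, n = 3). In PGK the order was EXOSC5, EXOSC4, EXOSC2, EXOSC10, EXOSC1, EXOSC3, EXOSC8, EXOSC7, EXOSC9 and EXOSC6. The libraries of EXOSC5 and EXOSC4, of EXOSC4 and EXOSC2, of EXOSC10 and EXOSC1, and of EXOSC8 and EXOSC7 overlapped there. In CAG the order was EXOSC5, EXOSC2, EXOSC8, EXOSC7, EXOSC9, EXOSC4, EXOSC10, EXOSC3, EXOSC1 and EXOSC6. EXOSC2 and EXOSC8 overlapped in that line, as did each neighbouring pair from EXOSC4 to EXOSC1. EXOSC6 was last in both lines, at 6.76 ± 0.876 and 7.57 ± 0.162 CPM per kb (SD, n = 3), but its annotated transcript of 5153 bases is the longest of the 10, so this low level depends on the length used. The order of the other subunits depends on it too. For EXOSC1 the longest coding transcript has 923 bases and the median one 641.

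**Figure D2:**
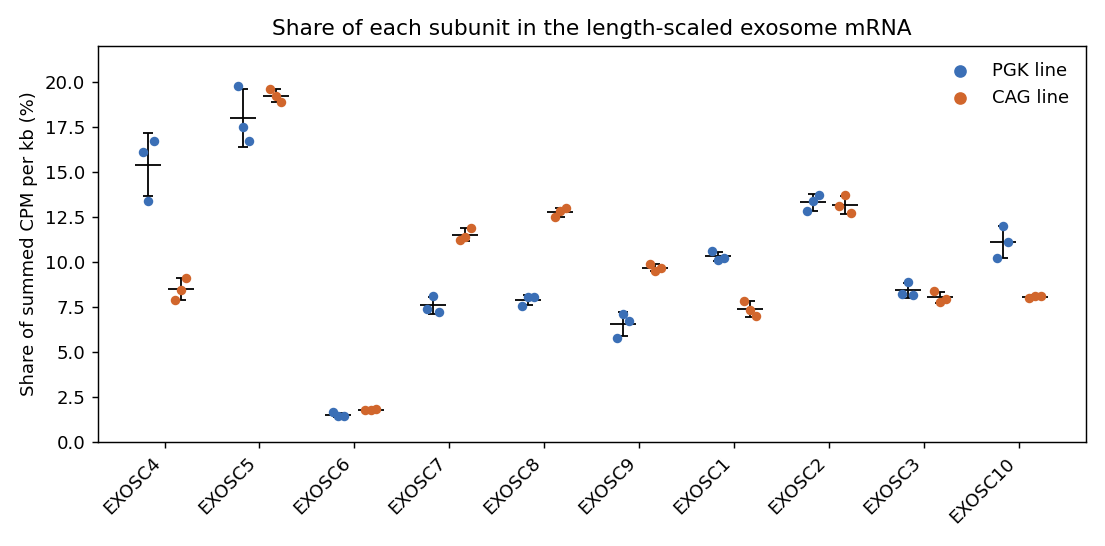
Share of each subunit, in percent, of the summed CPM per kb of the 10 exosome genes in each library. Points are libraries (3 per line), dashes are means and bars are SD. EXOSC4 falls from 15.4% to 8.48%, while EXOSC7, EXOSC8 and EXOSC9 each take a larger share in CAG.

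EXOSC4 held 16.1%, 13.4% and 16.7% of the length-scaled sum in the PGK libraries and 7.88%, 8.46% and 9.09% in the CAG libraries. EXOSC8 went the other way, from a mean of 7.87 ± 0.295% in PGK to 12.7 ± 0.267% in CAG (SD, n = 3). EXOSC7 held 7.57 ± 0.481% and 11.5 ± 0.391%, and EXOSC9 held 6.54 ± 0.682% and 9.68 ± 0.203%. EXOSC1 held 10.3 ± 0.223% and 7.38 ± 0.437%, and EXOSC10 held 11.1 ± 0.931% and 8.07 ± 0.0619%. The shares of EXOSC2 and EXOSC3 overlapped between lines, at 13.3 ± 0.487% and 13.1 ± 0.538% for EXOSC2 and 8.42 ± 0.399% and 8.02 ± 0.299% for EXOSC3. The ratio of the highest to the lowest length-scaled level was 11.6 to 12.1 in PGK and 10.5 to 11.1 in CAG. By mean level EXOSC5 was the highest and EXOSC6 the lowest in both lines, so this ratio rests on the extremes. Over the 10 genes the SD of the log2 length-scaled level was 0.99 to 1.02 in PGK and 0.91 to 0.92 in CAG. This difference in spread was not tested.

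The ring is built from dimers, EXOSC4 with EXOSC9, EXOSC5 with EXOSC8 and EXOSC6 with EXOSC7, and the ratio of partners shifted in each. The log2 ratio of EXOSC4 to EXOSC9, on the length-scaled level, was 1.48, 0.91 and 1.32 in PGK and -0.33, -0.17 and -0.08 in CAG. EXOSC4 thus went from 2.36 times its partner to 0.875 times, a shift of -1.43 in log2. For EXOSC5 to EXOSC8 the log2 ratio was 1.39, 1.12 and 1.05 in PGK and 0.65, 0.58 and 0.54 in CAG, a shift of -0.60. For EXOSC6 to EXOSC7 it was -2.17, -2.49 and -2.32 in PGK and -2.67, -2.69 and -2.73 in CAG, a shift of -0.37. In none of the 3 dimers did the libraries of the lines overlap. EXOSC4, EXOSC9, EXOSC8 and EXOSC7 already separated as single genes, as did 65.5% of tested genes. The ratios thus largely restate those single-gene changes, and no share over other gene pairs was computed. A two-sided exact permutation test gave p = 0.10 for each of the 3 ratios, also after Benjamini-Hochberg adjustment over the 3, and 0.10 is the smallest p that 3 against 3 libraries allow. Between lines the transcript length cancels, so these shifts do not depend on it. The ratios within a line, such as 2.36 and 0.875, do depend on the lengths used. The longest and median coding transcripts have 1065 and 887 bases for EXOSC4 and 1543 and 1481 for EXOSC9.

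Each subunit gene lies on its own chromosome region, and the fold change of a subunit resembled that of the genes beside it. Genes were placed in the order of the GENCODE 29 annotation, and the 25 nearest tested genes on each side of a subunit were taken as its 50 neighbours. Neighbours of EXOSC8 on chromosome 13 had a median log2 fold change of 0.51, with 44 of 50 called higher and 0 lower, against 0.63 for EXOSC8 itself. Around EXOSC7 the median was 0.48, with 43 higher and 0 lower, and around EXOSC9 it was 0.39, with 41 higher and 4 lower. Around EXOSC10 the median was -0.62, with 43 lower and 4 higher, and EXOSC10 at -0.52 lay slightly above it. These 4 subunits lay within 0.12 of their neighbours' medians. EXOSC2 and EXOSC3, both on chromosome 9 but far apart in gene order (428th and 128th of 531 tested genes), had neighbour medians of -0.04 and -0.03. EXOSC6, at 0.16, had one of 0.06. The median over all tested genes was 0.51 on chromosome 13 and 0.45 on chromosome 4, at or above those around EXOSC8 and EXOSC9. The likeness of EXOSC8 and EXOSC9 was thus not particular to nearby genes. Chromosome medians for EXOSC7, EXOSC10, EXOSC4, EXOSC1 and EXOSC5 were 0.22, -0.06, -0.13, -0.11 and 0.11, smaller in size than around those genes. Those of chromosomes 9 and 16 were -0.03 and -0.02.

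**Figure D3:**
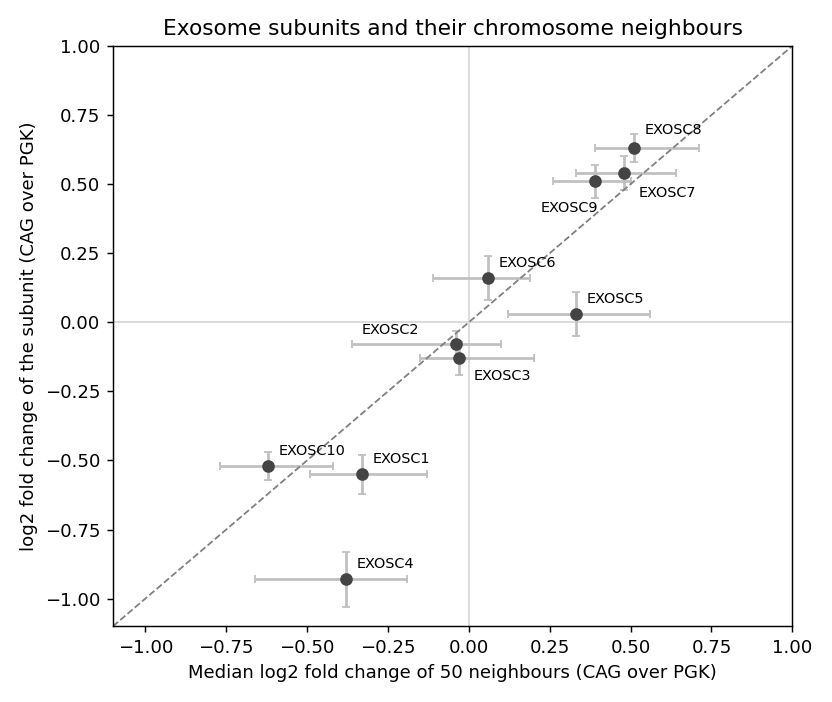
Log2 fold change (CAG over PGK) of each subunit, with its SE, against the median of its 50 nearest tested genes, with horizontal bars from the lower to the upper quartile of the neighbours. The dashed line marks equal values. EXOSC4, EXOSC5 and EXOSC1 lie furthest below it, by 0.55, 0.30 and 0.22.

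Across the 10 subunits, the subunit's value and its neighbours' median had a Pearson r of 0.92 and a Spearman rho of 0.94. This is a description of 10 genes measured in the same 6 libraries, with no test. For all 7 called subunits the neighbours' median had the same sign as the subunit. For EXOSC3 that match says little, since the median was -0.03 and 14 of its neighbours were called higher and 11 lower. With the neighbours' median subtracted, the SD of the 10 log2 fold changes went from 0.52 to 0.22. The correlation, the share of matching signs and the fall in SD were not computed over all tested genes. They thus cannot be read as particular to the exosome genes.

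EXOSC4 and EXOSC5 lay furthest from their surroundings. Neighbours of EXOSC4 had a median of -0.38, with 37 of 50 called lower and 1 higher, and EXOSC4 was 0.55 below that median, with 44 of the 50 neighbours above it. Of the nearest tested genes, GRINA on one side changed by -0.63 (SE 0.05) and GPAA1 on the other by -0.04 (SE 0.06). The fall of EXOSC4 was larger than that of either gene next to it. The tested genes 3 and 4 places before it in gene order changed by -0.94 and -1.08, as much as EXOSC4 or more. EXOSC5 was nearly level between the lines while its neighbours on chromosome 19 had a median of 0.33, with 32 called higher and 4 lower. EXOSC1 was 0.22 below its neighbours' median of -0.33. Of the genes nearest to EXOSC8, ALG5 changed by 0.49 (SE 0.07) and SUPT20H by 0.55 (SE 0.05), close to EXOSC8, and both overlap it.

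**Figure D4:**
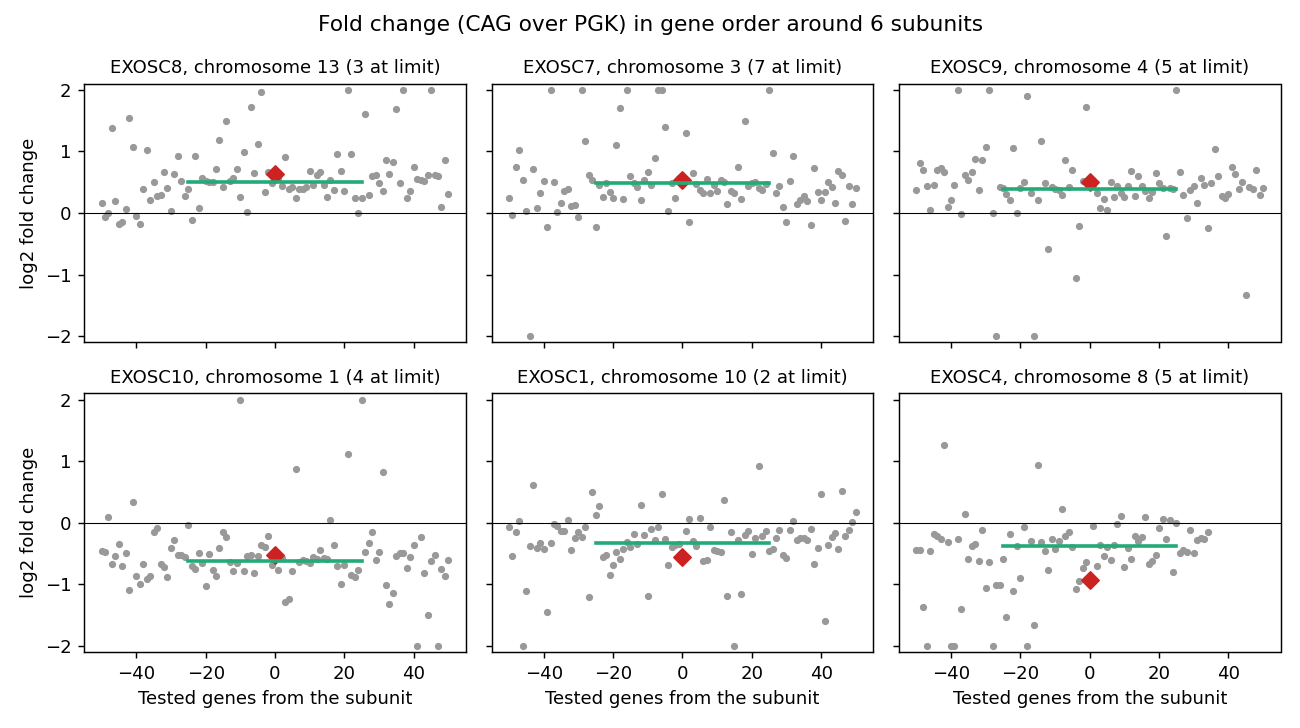
Log2 fold change (CAG over PGK) of up to 50 tested genes on each side of the 6 subunits with non-overlapping lines, in gene order (grey points, values past 2 drawn at the limit), with the subunit as a red diamond and the median of its 50 nearest genes as a green line. The green line lies above 0 around EXOSC8, EXOSC7 and EXOSC9 and below 0 around EXOSC10, EXOSC1 and EXOSC4, and EXOSC4 sits below its line.

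The genes most like EXOSC8 and EXOSC4 across libraries were on other chromosomes. Likeness was the root mean square difference of log2 CPM over the 6 libraries, each gene centred on its own mean. For EXOSC8 the closest were CALM3 (0.0137), DMWD (0.0205) and RWDD2B (0.0212), and for EXOSC4 they were RELL2 (0.0737), DOK1 (0.0739) and ISYNA1 (0.0746).

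The partners that feed RNA to the exosome or cut it also went both ways. Of 30 listed partner and related genes, all tested, 7 were called higher and 11 lower in CAG, against the 62.0% called over all tested genes. Among the catalytic subunits and direct partners, 1 of 4 was higher and 3 were lower. DIS3L, the nuclease of the cytoplasmic exosome, was at 28.7, 34.3 and 30.8 CPM in PGK and 45.1, 49.0 and 47.5 in CAG. The lines did not overlap, with a log2 fold change of 0.59 (SE 0.07) and an edgeR adjusted p of 4.2e-07. DIS3, its mainly nuclear counterpart, was at 228, 249 and 244 CPM in PGK and 216, 227 and 221 in CAG. DIS3 passed at -0.12 (SE 0.05) with an edgeR adjusted p of 0.0369, but not when scaled by library size only (-0.09, 0.135). It lies on chromosome 13 like EXOSC8, but its neighbours had a median of 0.22 and it was below them. Per kb, DIS3L was at 36.6 ± 1.87% of DIS3 in PGK and 60.1 ± 1.04% in CAG (SD, n = 3; exact permutation p = 0.10, the smallest possible). The test of this ratio was not planned, and the ratio largely restates the change of DIS3L, whose libraries already separated. These percentages depend on the transcript lengths used, 10604 bases for DIS3 and 3763 for DIS3L, and would be lower on CPM alone. C1D, which binds EXOSC10 in the nucleus, changed by -0.28 (SE 0.07), and MPHOSPH6, a nuclear exosome cofactor, by -0.20 (SE 0.07), both called.

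Of the MTR4 helicase and the adaptors that hand it nuclear RNA, 2 of 10 were higher and 5 lower, with a median of -0.10. This is near the 62.0% called in either direction over all tested genes. The helicase gene MTREX itself was at -0.11 (SE 0.05) with an edgeR adjusted p of 0.0459, and lost its call with library size only (-0.08, 0.158). RBM26 at 0.43 (SE 0.05) and RBM27 at -0.42 (SE 0.06), related RNA-binding proteins of the polyA tail exosome targeting connection, had the largest changes and opposite signs. Their neighbours had medians of 0.22 and -0.38. ZCCHC7, of the complex that tags nuclear RNA with a short tail, changed by -0.40 (SE 0.07) while its neighbours had a median of 0.02. In the nuclear cap link, which couples capped transcripts to the exosome, 2 of 5 were lower and 0 higher, against 30.4% called lower over all tested genes. NCBP2, the subunit that holds the cap, changed by -0.79 (SE 0.05), from 147 ± 3.97 to 84.6 ± 0.625 CPM (SD, n = 3), among neighbours with a median of -0.64. NCBP1 changed by -0.25 (SE 0.05).

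The SKI complex, the helicase assembly that threads mRNA into the cytoplasmic exosome, had 3 of 4 listed genes called higher and 0 lower, with a median of 0.18. Over all tested genes 31.6% were called higher, and whether this list of 4 differs from them was not tested. SKIC8 rose by 0.32 (SE 0.05), with 55.3, 58.8 and 55.6 CPM in PGK and 68.0, 73.2 and 70.8 in CAG. SKIC3 rose by 0.21 (SE 0.07) and the helicase SKIC2 by 0.16 (SE 0.05), while HBS1L, whose locus also encodes the link between ribosome and SKI complex, was at -0.01 (SE 0.05) and did not pass. The neighbours of SKIC2 and SKIC3 had medians of -0.11 and -0.05, and those of SKIC8 one of 0.34. Among 7 other exoribonucleases 1 was higher and 1 lower: DIS3L2, which degrades uridylated RNA, at 0.25 (SE 0.07) and the deadenylase PARN at -0.23 (SE 0.06). Of the partners named here with values, DIS3, DIS3L, DIS3L2, MTREX, NCBP2, RBM26, SKIC2, SKIC8 and XRN2 share exon sequence with a gene on the other strand, and RBM27 with one on its own strand, so their levels are uncertain. The 5′ exonucleases XRN1 and XRN2 were at -0.15 (SE 0.08) and -0.05 (SE 0.05) and did not pass.

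**Figure D5:**
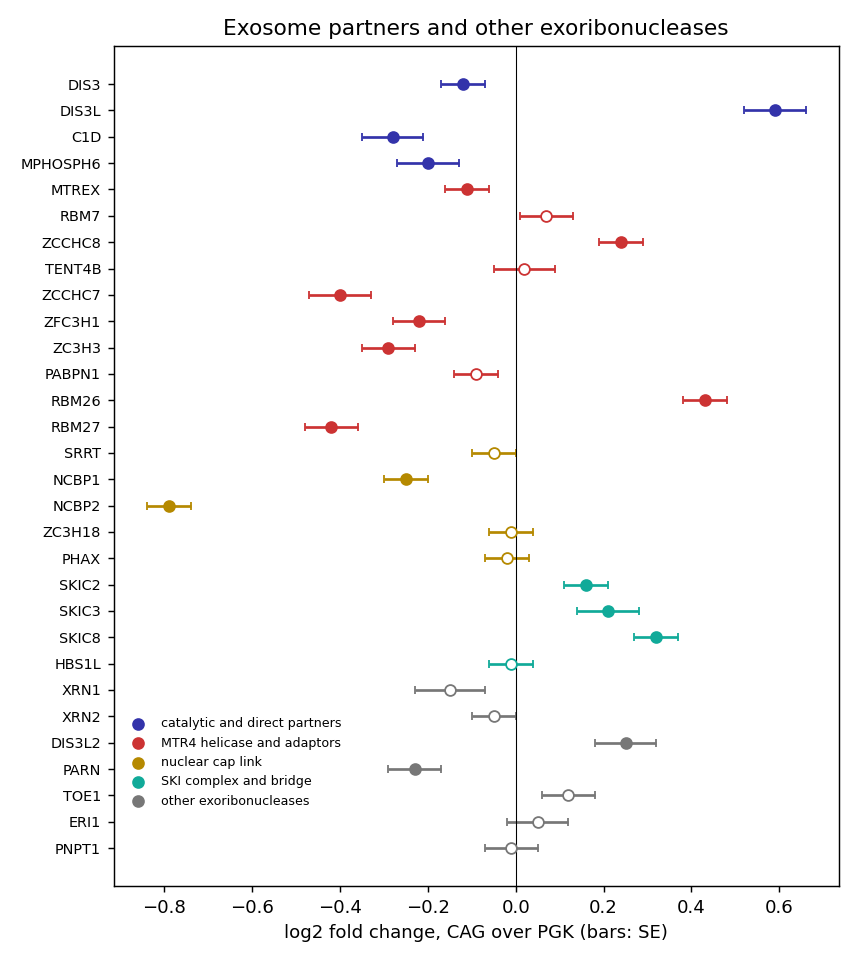
Log2 fold change (CAG over PGK) with SE for the 30 partner genes and other exoribonucleases, coloured by list. Filled points passed an edgeR adjusted p of 0.05 and open points did not. DIS3L at 0.59 is the highest and NCBP2 at -0.79 the lowest.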

How the data were processed

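The authors deposited whole-number read counts per Ensembl gene, not normalized and not pooled. The submitters' processing notes name the hg19 genome and, without their roles, featureCounts 2.0.3, HISAT2 2.2.1, Bowtie2 2.5.1 and cutadapt 4.6. No source used here gives the annotation or the strand setting. Each column was assigned through its label. Symbols (19346 of 20169 rows), chromosomes, gene order, overlaps, transcript lengths and GC content came from GENCODE 29, built on another genome version, so no coordinates are printed. Counts were filtered with filterByExpr, scaled by TMM and tested with edgeR 4.0.16 in R 4.3.3 (quasi-likelihood, robust, two-sided), with Benjamini-Hochberg adjustment over 13103 genes. An SE was obtained by dividing a log2 fold change by the root of its F. The test was checked on simulated counts for these 13103 genes, all drawn with the same dispersion, a simpler setting than real counts. It recovered 46% of 50 genes changed 1.25-fold and 88% of 50 changed 1.5-fold, and called 9 unchanged genes. Small changes can thus be missed. Libraries of a line were not duplicates, with a chi-square per degree of freedom of at least 3.31.

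The members and lists were chosen with earlier results of these data known. The rule named all members, the up to 2 most changed called genes of each partner list, genes that overlap a member, and the neighbours and most alike genes of the largest rise and fall. Other partner genes were picked from the lists after their values were seen. The kidney marker LHX1 was not matched. Alternatives were RLE size factors, library size only, other low-count filters, DESeq2 1.42.0, limma-voom (limma 3.58.1), a replicate block, each library left out, other transcript lengths and windows, and, added after seeing the data, a GC offset.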

Additional observations from a re-analysis of the deposited data

How the results depend on the processing

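EXOSC1, EXOSC4, EXOSC7, EXOSC8, EXOSC9 and EXOSC10 kept their direction and call under all 14 alternatives, whereas the calls or directions of the other subunits moved. EXOSC3 lost its call with library size only (-0.10), with the 1 CPM filter (-0.13) and with DESeq2 (-0.14). EXOSC6 passed with library size only (0.20), and EXOSC2 passed with the GC offset (-0.10, adjusted p 0.0461 in edgeR). With single libraries left out, EXOSC5 ranged from -0.04 to 0.15 with a change of sign (-0.03 without PGK replicate 2, -0.04 without PGK replicate 3, -0.01 without CAG replicate 1), EXOSC6 from 0.10 to 0.27 and EXOSC3 from -0.19 to -0.10. Subunits called higher numbered 3 to 5 in these fits. The cause of these changes was not tested.

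With the replicate block, EXOSC6 was called at 0.17 (adjusted p 0.0117 in edgeR), and calls over all genes were 4461 higher and 4400 lower against 4139 and 3986. Same-numbered libraries correlated at 0.148, 0.162 and 0.028 in their deviations from the line means, each above its pairings with other numbers, which is a hint from the data and not from the design. The SD of log2 length-scaled levels over the 10 subunits, 1.00 in PGK and 0.91 in CAG, moved to 1.17 and 1.08 with median transcript length and to 0.74 and 0.64 with no length scaling. With 10 neighbours on each side EXOSC8 was 0.17 above them instead of 0.12. With 50 on each side EXOSC5 was at -0.44 from its neighbours' median instead of -0.30. With library size only, 2 other exoribonucleases were higher instead of 1, while DIS3 and MTREX lost their calls, leaving 2 of 3 lower among catalytic and direct partners and 4 of 5 among the MTR4 list. Depth limits none of the members' counts strongly, since each had at least 649 reads in every library.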
